A study of Mus musculus with 29 samples.

Results

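The genes of the E proteins and of their Id inhibitors were examined for binding of Atoh1, Pou4f3 and Gfi1. The 7 genes, of 22367 protein-coding genes in the mouse annotation, were the E protein genes Tcf3, Tcf4 and Tcf12 and the inhibitor genes Id1, Id2, Id3 and Id4. They were chosen by name, and every peak summit that the authors kept in the gene body or within 50 kb of it was counted, in 9 peak lists. The lists came from ChIP-seq, in which DNA bound by a protein is pulled down with an antibody and sequenced. They were made from 29 libraries (17 ChIP, 12 input) of 6 mouse embryonic stem cell lines with a doxycycline-inducible cassette. The cassette held Atoh1 in iAtoh1, Pou4f3 in iPou4f3, Gfi1 and Atoh1 in iG+A, Gfi1 and Pou4f3 in iG+P, Pou4f3 and Atoh1 in iP+A, and all 3 factors in iGPA. All ChIP groups were embryoid bodies, which are mixed aggregates of differentiating cells, given 2 µg/ml doxycycline on day 4 and collected on day 6, after 48 h. Every line with Atoh1 was precipitated for it through its FLAG tag, and every line with Pou4f3 for that factor through its MYC tag. Gfi1 was precipitated only in iGPA, by an antibody against Gfi1 itself. Each ChIP group had 2 libraries, described in the study as biological replicates, except Gfi1 with 1. Peaks were called on merged libraries, so no value below has a spread between replicates, and no p-value was computed.

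Basic helix-loop-helix (bHLH) transcription factors bind DNA as dimers at short E-box sequences. Tissue-restricted members such as Atoh1, the factor that starts hair cell differentiation, pair with the widely expressed E proteins, which supply the other side of the dimer. The Id proteins have the helix-loop-helix but lack the basic, DNA-contacting region. They hold E proteins in dimers that cannot bind DNA, and Id genes are well-known targets of BMP signalling through Smad proteins.

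In build mm9, Tcf3 (the bHLH gene, not the HMG-box gene Tcf7l1 that shares the older symbol) is at chr10:79872259-79896392 on the minus strand, Tcf4 at chr18:69503800-69847621 on the plus strand and Tcf12, which encodes HEB, at chr9:71692059-71959626 on the minus strand. Id1 is at chr2:152561987-152563146 (plus), Id2 at chr12:25778666-25780957 (minus), Id3 at chr4:135699412-135701670 (plus) and Id4 at chr13:48356796-48359405 (plus). The windows searched therefore differed in length. They covered 936 kb for the 3 E protein genes, with the long bodies of Tcf4 (344 kb) and Tcf12 (268 kb), and 408 kb for the 4 compact Id genes.

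Summits of all 3 factors lay near these genes, and Id3 and Id1 held the most Atoh1 summits. Joining 300 bp windows around summits of all lists gave 104 distinct sites, 43 near E protein genes and 61 near Id genes. Atoh1 had a summit at 64 of them, Pou4f3 at 53 and Gfi1 at 9. Having a summit at all was common among genes. For Atoh1, 6 of the 7 genes had a summit in iAtoh1 (background 53.1% of protein-coding genes), and all 7 in iG+A (65.7%), iP+A (62.7%) and iGPA (72.2%). For Pou4f3, all 7 had one in iPou4f3 (72.8%), iG+P (76.6%) and iP+A (58.8%), and 6 in iGPA (63.2%). For Gfi1 it was 5 of 7, against 23.2% of protein-coding genes. The absences were Id4 from the iAtoh1 list, Id1 from the iGPA Pou4f3 list, and Tcf12 and Id4 from the Gfi1 list. The kept lists held 15568 to 26231 Atoh1 peaks, 17082 to 32632 Pou4f3 peaks and 3012 Gfi1 peaks, and a longer list gives more summits to any gene.

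**Figure D1:**
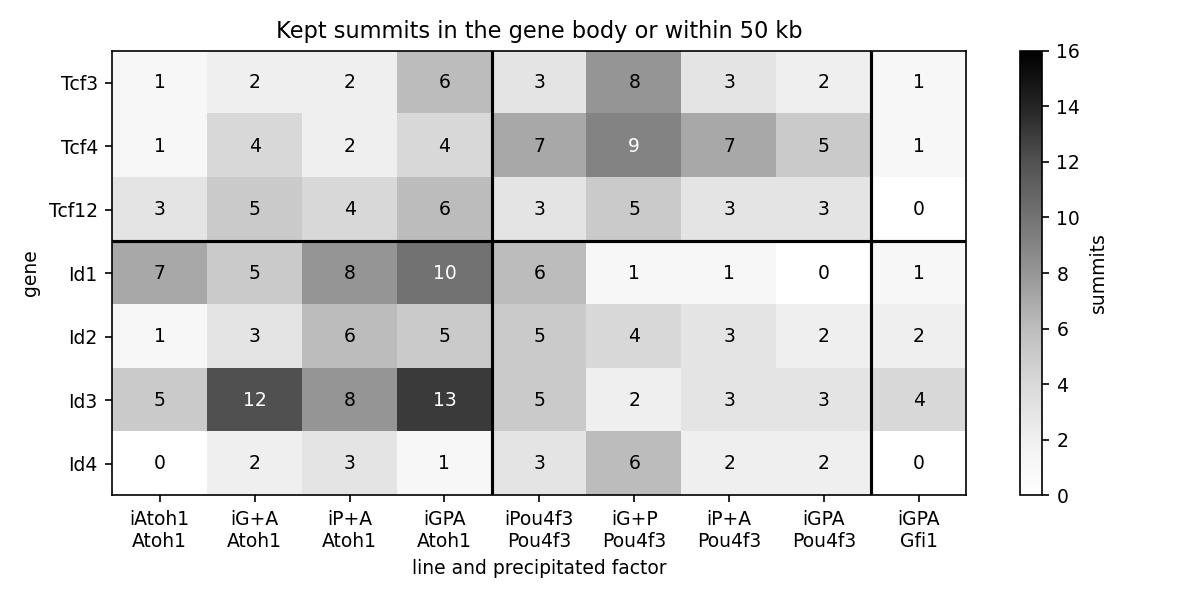
Number of kept summits in the body of each gene or within 50 kb of it (rows) in each list (columns: line above, precipitated factor below), with darker cells for higher numbers. Atoh1 numbers were highest at Id3 (13 in iGPA) and Id1 (10 in iGPA), and Pou4f3 numbers at Tcf4 (9 in iG+P).

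The DNA at the Atoh1 sites that carry the comparison is shown here because E-boxes are the sequence that Atoh1 and E protein dimers recognise. Each line gives 101 bases of the mm9 plus strand centred on the strongest summit. Capitals mark the forms of the E-box that the published Atoh1 motif (AtEAM) allows at its centre. These hexamers are CAGCTG, which reads the same on both strands, then CAGATG with its reverse complement CATCTG, and lastly the palindrome CATATG. The first 9 sites had an Atoh1 summit in all 4 Atoh1 lists (the other 2 of these 11 sites, at Tcf4 and in an untranslated exon near Id1, are not printed), and the last 2, at Tcf3 and Id4, in iGPA, iP+A and iG+A but not in iAtoh1.
Id1 12206 bp upstream, chr2:152549731-152549831: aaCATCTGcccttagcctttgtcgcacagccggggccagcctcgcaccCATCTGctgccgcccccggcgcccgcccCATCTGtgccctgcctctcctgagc
Id1 993 bp upstream, chr2:152560944-152561044: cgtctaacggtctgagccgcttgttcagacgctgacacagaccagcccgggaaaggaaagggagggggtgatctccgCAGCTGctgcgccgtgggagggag
Id1 3160 bp downstream, chr2:152565097-152565197: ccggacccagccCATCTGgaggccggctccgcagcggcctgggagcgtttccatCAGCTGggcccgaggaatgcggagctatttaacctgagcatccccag
Id2 2680 bp upstream, chr12:25783587-25783687: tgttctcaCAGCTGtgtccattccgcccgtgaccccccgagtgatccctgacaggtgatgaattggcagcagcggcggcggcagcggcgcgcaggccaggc
Id3 23237 bp upstream, chr4:135676125-135676225: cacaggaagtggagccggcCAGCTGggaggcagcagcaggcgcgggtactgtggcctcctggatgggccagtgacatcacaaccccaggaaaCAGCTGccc
Id3 2903 bp upstream, chr4:135696459-135696559: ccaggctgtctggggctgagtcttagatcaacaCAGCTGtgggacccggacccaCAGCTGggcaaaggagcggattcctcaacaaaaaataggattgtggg
Id3 4468 bp downstream, chr4:135703830-135703930: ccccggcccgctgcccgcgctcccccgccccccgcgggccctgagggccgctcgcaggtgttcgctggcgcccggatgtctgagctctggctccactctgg
Tcf12 21449 bp upstream, chr9:71981025-71981125: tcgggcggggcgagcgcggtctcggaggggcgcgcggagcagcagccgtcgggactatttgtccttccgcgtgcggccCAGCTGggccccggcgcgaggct
Tcf12 212 bp upstream, chr9:71959788-71959888: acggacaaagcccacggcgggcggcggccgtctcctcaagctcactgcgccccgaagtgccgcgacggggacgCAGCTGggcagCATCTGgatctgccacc
Tcf3 10889 bp upstream, chr10:79907231-79907331: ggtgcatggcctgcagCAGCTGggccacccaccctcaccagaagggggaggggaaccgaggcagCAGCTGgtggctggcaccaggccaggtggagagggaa
Id4 33587 bp upstream, chr13:48323159-48323259: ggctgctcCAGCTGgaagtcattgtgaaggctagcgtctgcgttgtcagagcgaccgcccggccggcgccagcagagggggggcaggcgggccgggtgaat
The strongest Atoh1 site, at Id1, had 3 CATCTG hexamers in this stretch, with 1 of them centred within 1 bp of the summit. The Id3 site 4468 bp downstream held none of the hexamers, and each of the other 9 printed held at least 1 CAGCTG.

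For Pou4f3 and Gfi1 the sites below are the 6 outside Tcf4 where Pou4f3 was found in all 4 of its lists, then the Id2 site shared by 3 factors, and the Gfi1 summit of highest fold enrichment. Capitals mark ATAATTAAT, a sequence recognised by Pou4f proteins, with up to 1 mismatch on either strand, where matches may overlap.
Tcf3 9401 bp downstream, chr10:79886941-79887041: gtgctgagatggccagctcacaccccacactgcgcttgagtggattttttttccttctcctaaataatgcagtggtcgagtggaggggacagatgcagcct
Tcf12 151212 bp downstream, chr9:71808364-71808464: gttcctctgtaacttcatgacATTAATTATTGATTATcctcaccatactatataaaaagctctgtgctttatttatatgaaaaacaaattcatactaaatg
Id2 822 bp upstream, chr12:25781729-25781829: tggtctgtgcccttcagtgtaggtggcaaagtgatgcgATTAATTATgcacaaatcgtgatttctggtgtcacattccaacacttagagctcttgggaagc
Id3 6182 bp downstream, chr4:135705544-135705644: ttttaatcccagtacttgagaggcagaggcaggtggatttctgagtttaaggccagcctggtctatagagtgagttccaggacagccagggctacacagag
Id3 43920 bp downstream, chr4:135743282-135743382: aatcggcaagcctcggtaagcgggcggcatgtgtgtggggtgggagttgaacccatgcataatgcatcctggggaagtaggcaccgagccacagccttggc
Id4 24335 bp upstream, chr13:48332411-48332511: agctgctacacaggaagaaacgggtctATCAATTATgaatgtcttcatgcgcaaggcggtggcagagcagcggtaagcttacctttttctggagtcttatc
Id2 1220 bp upstream, chr12:25782127-25782227: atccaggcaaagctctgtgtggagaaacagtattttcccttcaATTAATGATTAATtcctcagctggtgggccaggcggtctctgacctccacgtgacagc
Id3 236 bp upstream, chr4:135699126-135699226: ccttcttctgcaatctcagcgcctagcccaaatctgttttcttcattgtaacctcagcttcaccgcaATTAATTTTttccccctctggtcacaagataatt
Of the 6 Pou4f3 sites, those at Tcf12, Id2 and Id4 held a match in these bases, and those at Tcf3 and Id3 held none. The Id2 site 1220 bp upstream held overlapping Pou4f matches and, after them, 1 CAGCTG hexamer. The Gfi1 sequence AATCACAGC, searched with either A or T as its seventh base, was in none of these stretches. The bases of the Id2 site 1220 bp upstream are centred on its iGPA Atoh1 summit. Its Gfi1 summit, 1421 bp upstream, lay outside them.

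Measured against length, Atoh1 summits were denser near the Id genes as a class than near protein-coding genes in general. Near the E protein genes as a class the ratio was close to 1. Over the 4 Atoh1 lists, 89 summits lay near Id genes, or 218 per Mb, against 41.8 per Mb in the windows of all protein-coding genes. The ratio was 5.21 (exact Poisson 95% interval 4.18 to 6.41). Near E protein genes there were 40 Atoh1 summits, a ratio of 1.02 (0.73 to 1.39). The Id ratio was above 1 with its interval in each Atoh1 list, from 4.04 (2.15 to 6.91) in iAtoh1 to 6.40 (4.14 to 9.45) in iP+A. A binding site found in several lists enters this count once per list, so the intervals are too narrow. Counted once each, the distinct Atoh1 sites gave a ratio of 4.70 (3.41 to 6.31) for Id genes. Id genes are short, so more of their windows is close to a start. Set against protein-coding genes of at most 5 kb the ratio was 4.09 (3.29 to 5.04), and for summits over 5 kb from any start it was 3.65 (2.47 to 5.22). It was uneven among the 4 genes, since without Id3 it was 3.98 (2.97 to 5.24) and without Id4 6.49 (5.17 to 8.05). Id4 had 0 Atoh1 summits in iAtoh1 and 1 in iGPA, where 54% of protein-coding genes were at least as dense. In iG+A and iP+A it had 2 and 3, with 25.4% and 10.9%. The E protein gene Tcf3 was denser than Id4 in iAtoh1 and iGPA (in iGPA 4.83 against 0.975 summits per 100 kb), and less dense in iG+A and iP+A.

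For Pou4f3 the order of the gene classes depended on how summits were assigned. Within 50 kb, 48 summits near Id genes gave a ratio of 2.67 (1.97 to 3.55), and 58 near E protein genes gave 1.41 (1.07 to 1.82). Assigned to the gene with the nearest start, the order turned round, with 1.78 for Id genes and 1.89 for E protein genes. For Atoh1 the same assignment gave 3.04 and 1.11. The iPou4f3 list had the highest Id ratio, 4.16 (2.51 to 6.50), while the interval of iGPA reached below 1 (ratio 1.95, 0.785 to 4.02). Away from starts (over 5 kb) the Pou4f3 ratio near Id genes was 1.69 with an interval that included 1 (0.966 to 2.74). Gfi1 had 7 of its 9 summits near Id genes, a ratio of 10.8 (4.35 to 22.3), and 2 near E protein genes, a ratio of 1.35 (0.163 to 4.87).

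**Figure D2:**
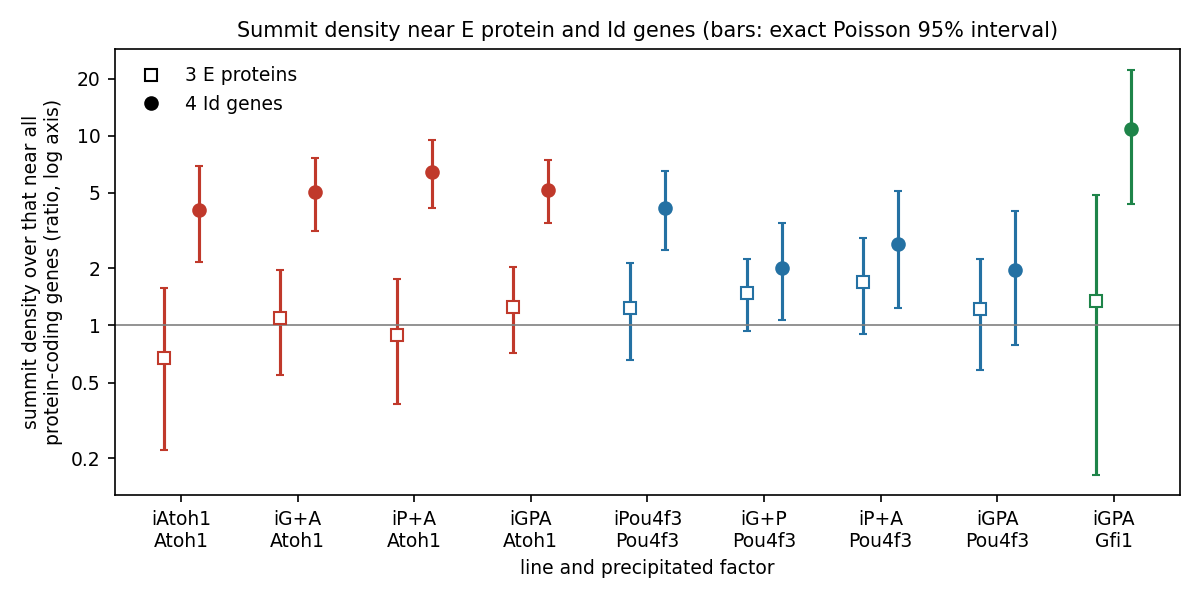
Summits per Mb near E protein genes (open squares) and Id genes (filled circles), divided by that in the windows of all protein-coding genes, for each list. Bars are exact Poisson 95% intervals, which cover counting error only, and the vertical axis is logarithmic. Id genes lay above 1 in every list by their ratio, from 1.95 to 10.8, and E protein genes between 0.678 and 1.69.

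Each list is a separate experiment, so the strength of a site is given as its fold enrichment and as the percentile of that value within its own list. Fold enrichment is the peak caller's ratio of ChIP signal at the summit to local background, with input as control. Sites are named by their distance from the 5′ end of the gene model. Where 4 fold values follow each other without line names, they keep the order iGPA, iP+A, the line that adds Gfi1 only, and the line with the factor alone.

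Among the E protein genes, Tcf3 had its strongest Atoh1 site in the lines with more than 1 factor and not in iAtoh1. This site, 10889 bp upstream in intergenic DNA, had a fold of 10.5 in iGPA, 4.63 in iP+A and 4.67 in iG+A. These values were at percentiles 96.6, 86.3 and 85.6 of their lists, and in iAtoh1 no peak was called there, kept or not. Its main Pou4f3 site was in an intron 9401 bp downstream of the start, 2386 bp from the nearest annotated Tcf3 transcript start. Pou4f3 had a fold of 12.4 in iGPA, 5.32 in iP+A, 6.35 in iG+P and 5.23 in iPou4f3, percentiles 85.2 to 95.9. Atoh1 summits were at this site in the lines that also carry Pou4f3, with a fold of 3.12 in iP+A and 4.80 in iGPA, and was in neither the iAtoh1 nor the iG+A list. The Gfi1 summit in the window, 47678 bp from the start, lay in an intron of the neighbouring gene Mex3d, with a fold of 3.96 at percentile 32.4 of the Gfi1 list. Of the 16 sites in this window, 8 were nearer to a start of Tcf3 than to that of another protein-coding gene.

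Tcf4 had 5 to 9 summits in the Pou4f3 lists and 1 to 4 in the Atoh1 lists. Its introns held 4 sites with Pou4f3 in all 4 lists, 31960, 247710, 249556 and 306683 bp from the start. At the first of them, Pou4f3 had a fold of 5.53 in iGPA, 4.75 in iP+A, 5.36 in iG+P and 6.66 in iPou4f3. The site at 247710 bp had 7.86, 5.66, 6.46 and 5.35 in the same order. The next, at 249556 bp, was 276 bp from the start of a shorter Tcf4 transcript and was the only joined site near the 7 genes with both factors in all of their lists. It was 778 bp wide, as windows of neighbouring summits were joined in a chain. In iGPA the Atoh1 summit was 249235 bp and the Pou4f3 summit 249556 bp from the start, so their own 300 bp windows did not overlap. Within the joined site Atoh1 had 5.39 in iGPA, 2.58 in iP+A, 3.20 in iG+A and 3.05 in iAtoh1, and Pou4f3 8.45, 3.06, 4.93 and 4.64. The Atoh1 values ran from percentile 10.2 in iP+A to 82.2 in iGPA, below the median of the list in 3 of the 4. At 306683 bp Pou4f3 had 6.84, 2.72, 4.93 and 4.52. The Gfi1 summit, in an intron 7685 bp from the start, had a fold of 3.74, percentile 22.6.

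Tcf12, the gene of HEB, had Atoh1 at its promoter in every Atoh1 line. The site 212 bp upstream of the start had an Atoh1 fold of 5.17 in iGPA, 4.52 in iP+A, 3.74 in iG+A and 4.40 in iAtoh1, at percentiles 69.3 to 85.4. A further site 21449 bp upstream had 7.57, 4.84, 3.60 and 3.54. Both sites also held a weaker Pou4f3 summit in iG+P, at percentiles 12.0 and 7.41, and the upstream site a Pou4f3 summit in iPou4f3 (3.29). At the promoter site an iPou4f3 peak with its summit in the next site extended over it. The Pou4f3 site of all 4 lists lay in an intron 151212 bp downstream, with 4.66 in iGPA, 3.06 in iP+A, 4.27 in iG+P and 4.64 in iPou4f3, and had no Atoh1 summit. No kept Gfi1 summit lay near Tcf12.

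**Figure D3:**
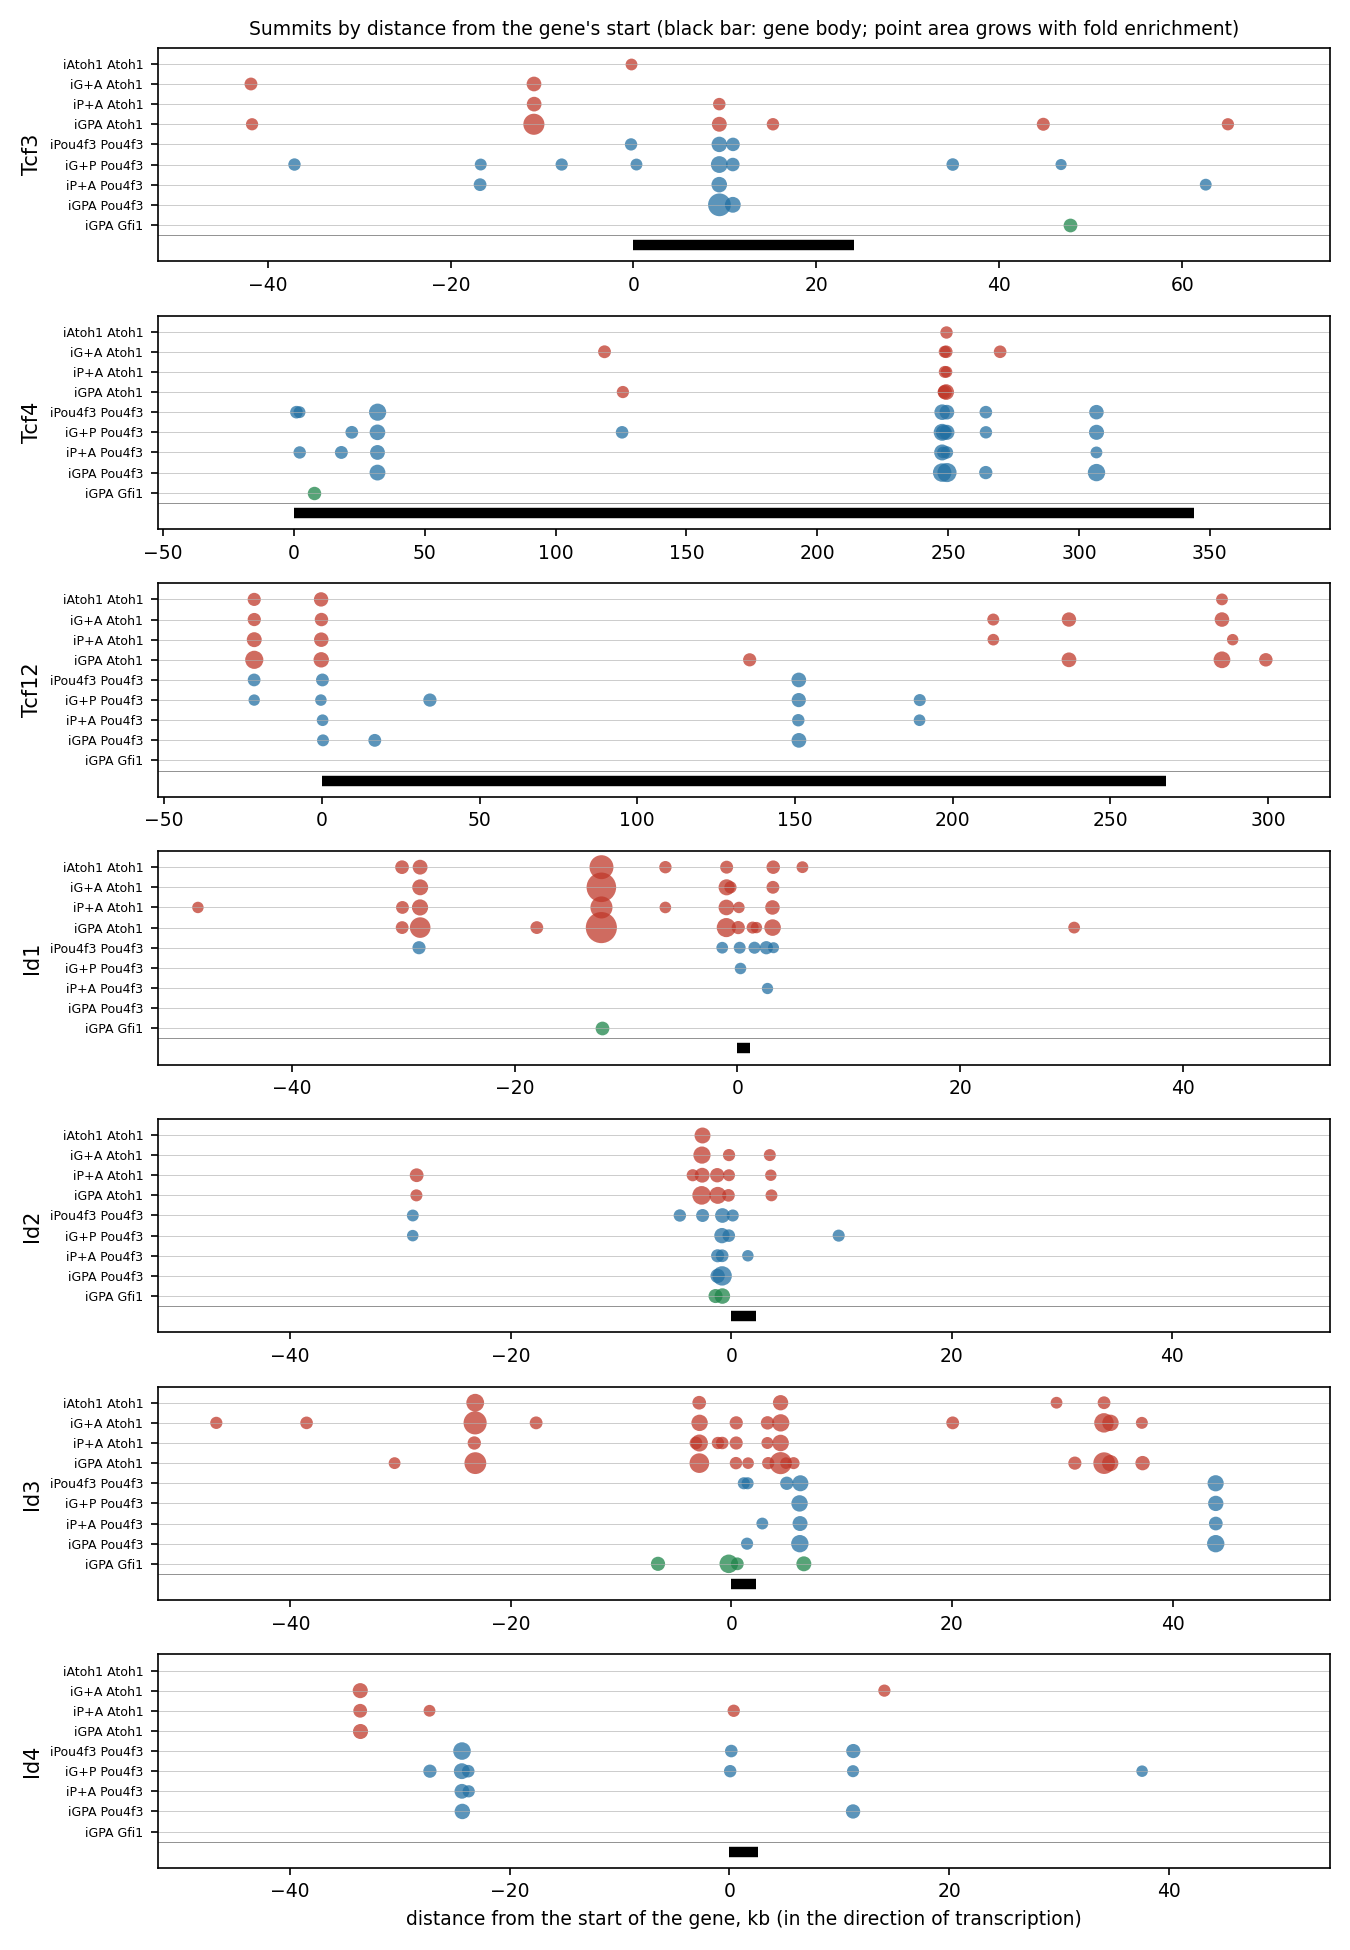
Kept summits near the 7 genes by distance from the start of the gene in kb (horizontal, in the direction of transcription), with 1 row per list in Atoh1 (red), Pou4f3 (blue) and Gfi1 (green). Point area grows with fold enrichment within 1 list and the black bar is the gene body. The strongest column is Atoh1 12206 bp upstream of Id1 (fold 11.6 to 23.9), and Pou4f3 columns stand inside Tcf4 and Tcf3.

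Id1 carried the strongest Atoh1 site of the 7 genes. The site, 12206 bp upstream in intergenic DNA, had an Atoh1 fold of 23.9 in iGPA, 11.6 in iP+A, 21.5 in iG+A and 13.8 in iAtoh1. By fold it ranked 79 of 26231 peaks in iGPA, 132 of 18949 in iP+A, 24 of 20504 in iG+A and 44 of 15568 in iAtoh1. It was thus above the 99th percentile of all 4 lists, and a Gfi1 summit (fold 3.95, percentile 29.5) fell in the same site. The other Id1 sites with Atoh1 in all 4 lists were 28465 and 993 bp upstream and 3160 bp downstream of the start. At 993 bp upstream, close to the promoter, the fold was 8.49 in iGPA, 5.38 in iP+A, 5.74 in iG+A and 3.42 in iAtoh1. At 3160 bp downstream it was 6.15, 4.52, 3.34 and 3.79. The site 28465 bp upstream, with 9.97, 5.81, 5.61 and 4.76, lay in an untranslated exon of the neighbouring gene H13, which has the nearest start. Pou4f3 showed another picture at Id1, with no site in all 4 lists. It had 6 summits in iPou4f3, 1 each in iG+P and iP+A, and none in iGPA, where 63.2% of protein-coding genes had one. The highest Pou4f3 fold, 2599 bp downstream, was 3.61 in iPou4f3 and 2.38 in iP+A.

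Id2 held all its 12 sites nearer to its own start than to that of any other protein-coding gene. Atoh1 was in all 4 lists 2680 bp upstream, with a fold of 8.00 in iGPA, 4.77 in iP+A, 6.68 in iG+A and 5.62 in iAtoh1, at percentiles 87.6 to 95.1. Closer to the promoter, 822 bp upstream, Pou4f3 was in all 4 lists with 8.74 in iGPA, 3.28 in iP+A, 5.14 in iG+P and 4.64 in iPou4f3, together with Gfi1 (fold 5.28, percentile 71.5) and without Atoh1. Between them, 1220 bp upstream, was the only site near the 7 genes with summits of all 3 factors. It held Atoh1 in iP+A (4.41) and iGPA (6.52), Pou4f3 in the same lines (3.51 and 4.37) and Gfi1 in iGPA (4.18). No peak was called there in iAtoh1, iG+A or iG+P, kept or not. In iPou4f3 the site had no summit of its own, but the peak with its summit at the site 822 bp upstream extended over it.

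Id3 had the most sites, 26, of which 20 held Atoh1. Of the 26 sites, 18 were nearer to a start of Id3 than to that of another protein-coding gene. The counts and densities that follow also include the sites nearer to a neighbouring gene. The iG+A and iGPA lists had 12 and 13 Atoh1 summits near it, and 1.14% and 0.881% of protein-coding genes were at least as dense. In iAtoh1 and iP+A it had 5 and 8, with 2.64% and 1.59%. Atoh1 was in all 4 lists 23237 and 2903 bp upstream and 4468 bp downstream of the start. The site 23237 bp upstream had a fold of 11.3 in iGPA, 3.66 in iP+A, 12.8 in iG+A and 7.21 in iAtoh1, so its value in iP+A (percentile 71.3) stood below the other lists (97.2 to 99.3). The site 2903 bp upstream had 8.98, 6.56, 6.01 and 3.91, and the site 4468 bp downstream 11.6, 6.15, 6.81 and 5.13. In E2f2, the next gene and an activator of cell cycle genes, lay Atoh1 summits that iG+A and iGPA shared. At 33801 bp the fold was 3.30 in iAtoh1, 8.81 in iG+A and 11.1 in iGPA, and at 34354 bp 6.01 in iG+A and 5.91 in iGPA. The iP+A list had no peak at either, kept or not. Pou4f3 was in all 4 lists 6182 bp downstream of the start, with 6.84 in iGPA, 4.87 in iP+A, 6.02 in iG+P and 5.71 in iPou4f3, and in an E2f2 intron at 43920 bp, with 6.84, 3.96, 5.14 and 5.82.

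Id4 had no kept summit in the iAtoh1 list and none in the Gfi1 list. With all called peaks it had an iAtoh1 peak (fold 3.70) 37537 bp downstream, and all 7 genes then had one in iAtoh1. Its main Atoh1 site, 33587 bp upstream, had a fold of 4.92 in iGPA, 3.98 in iP+A and 4.94 in iG+A, at percentiles 78.3 to 87.9. Its main Pou4f3 site, 24335 bp upstream, was in all 4 lists with 5.24 in iGPA, 4.75 in iP+A, 5.58 in iG+P and 7.01 in iPou4f3. Both lay in introns of A330033J07Rik, a gene model upstream of Id4 for which no function is given here.

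**Figure D4:**
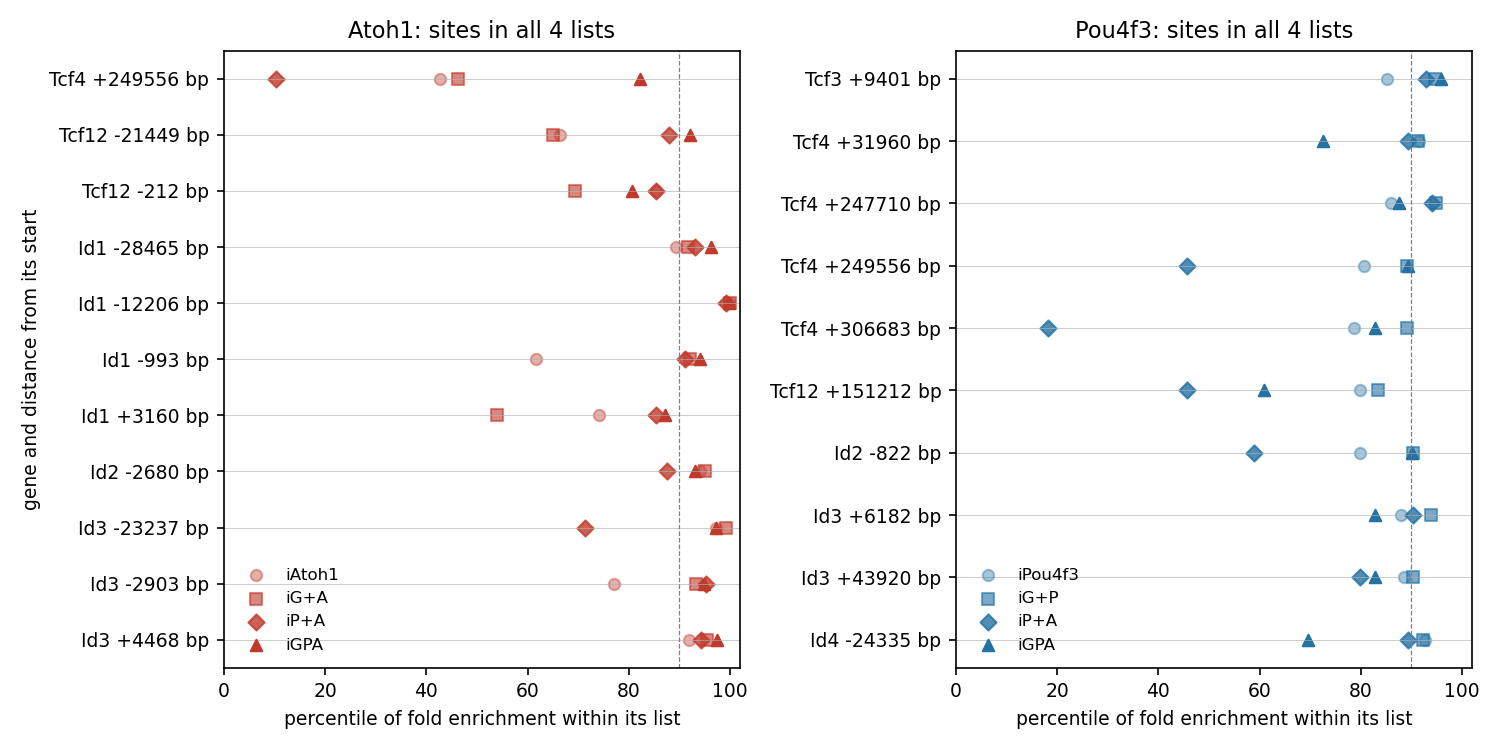
Percentile of the fold enrichment within its own list (horizontal) of each site with Atoh1 in all 4 Atoh1 lists (left, 11 sites) or Pou4f3 in all 4 Pou4f3 lists (right, 10 sites), named by gene and distance in bp from its start (negative is upstream), with 1 symbol per line and a dashed line at the 90th percentile. The Id1 site at -12206 lies above 99 in all 4 lists, and the Tcf4 site at 249556 spans 10.2 to 82.2 for Atoh1.

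Gfi1, a zinc finger repressor, had its densest group at Id3. The 4 summits there lay 6653 and 236 bp upstream of the start, 538 bp downstream in the coding exon, and 6571 bp downstream. Only 0.201% of protein-coding genes were as densely covered in the Gfi1 list. The promoter summit, 236 bp upstream, had a fold of 7.92, percentile 90.5, and no summit of another factor. Those at 6653 bp upstream (4.26) and 6571 bp downstream (4.84) were also without a summit of another factor, although Pou4f3 peaks of all 4 lists (with their summits in the neighbouring site) reached into the latter. The exon site (3.30) had Atoh1 in iGPA (3.08), iP+A (3.55) and iG+A (3.60). In all, 5 of the 9 Gfi1 sites held only a Gfi1 summit, 3 had Atoh1 in some list and 2 had Pou4f3. None of the 9 lay in a short tandem repeat, looked for in the 100 bases around the strongest summit of the site. A repeat was defined as at least 80% of these bases equal to the base 1 repeat unit (1 to 12 bases) further on. At the sites with Atoh1 or Pou4f3 the strongest summit was of that factor, so the bases around the Gfi1 summit were not fully covered. Repeats scattered through the genome were not looked for, at the 9 Gfi1 sites or at the other sites printed above. The Gfi1 list came from 1 library, and 6 of the 9 folds were below its median.

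Atoh1 sites near the 7 genes were shared between lines at shares partly near and partly above those of the whole series. Of the 64 sites with Atoh1, 11 (17.2%, exact Clopper-Pearson 95% interval 8.90 to 28.7) were in all 4 Atoh1 lists, against 10.7% of the 44363 Atoh1 sites in the series. By class it was 8 of 43 near Id genes and 3 of 21 near E protein genes. Of the iGPA Atoh1 sites near the 7 genes, 14 of 45 were also in iAtoh1 (31.1%, 18.2 to 46.6), the same as for all iGPA sites (31.1%). In the other direction 14 of 18 iAtoh1 sites were found in iGPA (77.8%, 52.4 to 93.6), against 52.5% of all. With the lists at equal length the share near the 7 genes was the same, and that of all sites was 41%, below this interval. The iAtoh1 summits near the 7 genes had a median fold percentile of 70.3 in their list, and shares were not compared at equal strength. Sites in iGPA, iP+A and iG+A but not iAtoh1 made up 7 of the 64 (10.9%, 4.51 to 21.2) and 3.56% of the series, below the interval. For every other combination of Atoh1 lists the interval included the share of the series. With so many combinations, 1 such value is not a test. The 7 sites included the Tcf3 and Id4 sites printed above.

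Few Atoh1 sites near these genes also held a Pou4f3 summit in the same line, with intervals that included the series' values. In iGPA, 3 of 45 Atoh1 sites near the 7 genes had a Pou4f3 summit (6.67%, 1.40 to 18.3), and the value for all iGPA Atoh1 sites was 15.2%. In iP+A it was 3 of 33 (9.09%, 1.92 to 24.3) against 23.0%. Counting summits of any line, 18 of the 104 sites (17.3%) held both factors, against 18.2% of 78408 sites. For Pou4f3 itself, 10 of 53 sites (18.9%, 9.44 to 32.0) were in all 4 lists, against 14.8%, with 6 of them in E protein genes. Of the 17 iGPA Pou4f3 sites 15 were also in iPou4f3 (88.2%, 63.6 to 98.5), where the value for the series was 58.6%, below that interval. The 17 summits had a median fold percentile of 72.6 in their list, and here too strength was not made equal. Neighbouring sites are not independent.

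E-boxes were at most Atoh1 summits near these genes, at shares whose intervals included that of all Atoh1 summits. In the 250 bp around the summit, the 4 hexamers were found at 14 of 18 summits in iAtoh1 (77.8%, 52.4 to 93.6), against 62.9% of all summits of the list and 32% of windows 1000 bp to the side. In iGPA it was 38 of 45 (84.4%, 70.5 to 93.5), against 75.2% and 32.5%. The looser CANNTG was at 42 of 45 (93.3%), but also in 73.6% of the side windows. For AtEAM the exact pattern RMCAKMTGKY was searched (R is A or G, M A or C, K G or T, Y C or T). It was at 8 of 45 iGPA summits (17.8%, 8.00 to 32.1), against 18.8% and 2.09%. The study, with its own motif search, reported AtEAM in a much larger share of its iGPA peaks. The shares given here are therefore not comparable with those of the study. Of the 11 sites with Atoh1 in all 4 lists, 10 had a hexamer in the 250 bp and 2 an AtEAM match. The site without one was that 4468 bp downstream of Id3. The Pou4f sequence was at 10 of 17 iGPA Pou4f3 summits (58.8%, 32.9 to 81.6), against 54.5% and 10.8%, and at 10 of 32 in iPou4f3 (31.2%, 16.1 to 50), against 41.9% and 9.97%. It was at 6 of the 10 sites with Pou4f3 in all 4 lists. The Gfi1 sequence was at 0 of 9 Gfi1 summits, which allows a share of up to 33.6% (exact upper limit), against 7.01% of all Gfi1 summits and 0.581% of side windows. A match describes the letters and does not show which protein was bound.

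Among genes that act on this system, the co-repressor genes Cbfa2t3 and Cbfa2t2 had the most Atoh1 summits by count. Of 18 BMP and Smad genes, which drive or limit Id transcription, 11 had an iAtoh1 summit (61.1%) and 15 an iGPA Atoh1 summit (83.3%), beside 53.1% and 72.2% of protein-coding genes. For iGPA Pou4f3 it was 15 (83.3%, beside 63.2%) and for Gfi1 5 (27.8%, beside 23.2%). Those with Gfi1 were the receptor gene Bmpr1a, the signal transducers Smad1, Smad5 and Smad4, and the inhibitory Smad6. Bmp7 and Smad7 had summits in the 8 Atoh1 and Pou4f3 lists. Of 11 partners and co-repressors of E proteins, 7 had an iAtoh1 summit (63.6%), 10 an iGPA Atoh1 summit (90.9%) and 4 a Gfi1 summit (36.4%), namely Runx1t1, Cbfa2t2, Cbfa2t3 and Twist1. Lyl1 and Lmo4 had summits in the 8 other lists. Cbfa2t3 and Cbfa2t2, with Runx1t1 the genes of the ETO co-repressors that bind E proteins, held many Atoh1 summits. Cbfa2t3 had 22 in iGPA, 12 in iP+A, 14 in iG+A and 10 in iAtoh1, and between 0.814% and 2.02% of protein-coding genes were at least as dense. Cbfa2t2 had 13, 11, 11 and 15 in the same order, with 1.61% to 5.78%. Set against window length, Lyl1 was denser than both in iG+A (8.72 summits per 100 kb, against 8.22 for Cbfa2t3 and 5.42 for Cbfa2t2). In iGPA Lyl1 (7.75) lay between Cbfa2t3 (12.9) and Cbfa2t2 (6.41), and in iAtoh1 and iP+A it was less dense than both. The Pou4f3 lists had 1 to 3 summits at Cbfa2t3 and 1 to 5 at Cbfa2t2.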

How the data were processed

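The data were 9 peak lists from 17 ChIP libraries and 12 inputs, grouped by sample title. As the methods of the study describe, reads were trimmed and aligned to mm9 by the authors (Bowtie 2), duplicates, poorly mapped reads and blacklisted regions were discarded, and MACS 2 called peaks on pooled ChIP libraries with pooled input as control. The deposited fold enrichment (a ratio of summit fragments to local background) and −log10 p are those of the peak caller, so no list carries a replicate value and sites were not tested. Summits the authors kept in a separate deposited list were used. The filter behind that list was not stated. Total read counts were not used here, and a list with more depth or lower background holds more weak peaks, so counts between lists depend on list length.

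Summit windows of 300 bp that overlapped by 1 bp or more were joined, following the study. A site was near a gene when a summit lay in its body or within 50 kb, by the GENCODE annotation of NCBIM37, the same assembly as mm9. Distances use the summit with the highest −log10 p. Densities have exact Poisson and shares exact Clopper-Pearson 95% intervals, which cover counting error only. Both strands were searched for patterns, in 250 bp around summits and in windows 1000 bp to each side, and the 4 E-box hexamers were added after the data were seen. The named sites are those in all 4 lists of a factor, those with Gfi1, and the highest fold per gene and factor. Pathway genes were named with a Gfi1 summit or summits in 8 or more lists. The members and gene lists were chosen with earlier results of these data known. The scripts were tested on simulated positions and found 42 of 42 planted summits and 14 of 14 shared sites. Python 3, pandas, scipy and pysam were used. The lists hold no RNA values, so the expression of these genes and the identity of the cells were not checked.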

Additional observations from a re-analysis of the deposited data

Results flagged for a closer look

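Peaks that were called but are absent from the kept summits entered no reported count or ratio except as the alternative with all called peaks, and some lay near these 7 genes. There were 5 in the iAtoh1 Atoh1 list, 5 in iGPA Atoh1, 6 in iPou4f3 and 5 in iG+P, each above the fixed limit of 3 used to flag a list. In that order they were 0.0585%, 0.0915%, 0.139% and 0.0616% of the called peaks that were not kept. The other 5 lists had 1 to 3 each. At the named sites they concern Tcf12 21449 bp upstream, where iGPA Pou4f3 had a peak that was not kept, and Id3 2903 bp upstream, where iPou4f3 had one. The highest fold among those in iGPA Atoh1 was 5.41.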

How the results depend on the processing

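Of 157 recomputed values of the 19 results that answer a comparison, 131 stayed within their limit (the reported interval, or 1.5 times a count) and none of the density ratios near Id genes fell below 1. With windows of 10 kb there were 64 distinct sites, 7 with Atoh1 in all 4 lists and 3 genes with Gfi1, and the Id ratios rose to 12.6 for Atoh1 and 7.91 for Pou4f3. With 100 kb the Atoh1 Id ratio was 3.61. Requiring −log10 p of at least 10 left 43 sites, 6 with Atoh1 and 6 with Pou4f3 in all 4 lists, 3 Gfi1 summits near 2 genes, 4 genes in iP+A Pou4f3, and an Atoh1 Id ratio of 6.99. Counting summits whose nearest start is a member's, over the length nearest to it, gave ratios of 3.04 (Atoh1, Id), 1.78 (Pou4f3, Id) and 1.89 (Pou4f3, E proteins), so the Pou4f3 ratios of the classes changed order. All called peaks gave an Atoh1 Id ratio of 3.97, and whole chromosomes as background 7.12 for Id genes and 1.40 for E proteins. At equal list length (15568 peaks), 50% of iGPA Atoh1 sites (14 of 28, 30.6 to 69.4) were in iAtoh1, beside 40.6% of all.

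Chosen after seeing the data were short genes as background (4.09, Atoh1 Id), summits over 5 kb from any start (3.65 for Atoh1 and 1.69 for Pou4f3 at Id genes), distinct sites, and leaving out each gene. The Atoh1 ratio was 3.98 without Id3, 6.49 without Id4, and for E proteins 1.41 without Tcf4. The cause of these shifts was not tested. The Pou4f3 ratio near E proteins had an interval that included 1 in several of these settings, such as distinct sites (1.28, 0.847 to 1.84). No paired analysis was possible because peaks were called on merged replicates, and for the same reason no replicate could be left out. The depth behind each list was not used, so an absent summit means not called at that depth.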
